A study of Caenorhabditis elegans with 12 samples.

Results

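The nuclear hormone receptor (*nhr*) genes of *C. elegans* were examined in RNA from sorted BAG neurons, the CO2-sensing neurons of the head. Members were taken by symbol, as every gene named *nhr-* followed by a number for which a normalized read count was given, and 256 of the 22542 genes with such counts met this rule. A further 13 *nhr* symbols had no normalized count and were not analysed here. The tested animals were *arcp-1(db1082); npr-1(ad609)* double mutants, called *arcp-1* mutants below, and the controls were *npr-1(ad609)* animals. Both genotypes carried the *ynIs64[flp-17p::gfp]* transgene, so all 12 libraries lack NPR-1 function and differ by the *arcp-1* allele, which places a premature stop codon in this ankyrin repeat gene. Animals were day 1 adults raised at 20°C, and 6 libraries were prepared per genotype from an average of 4000 sorted cells each. Cells were sorted by GFP driven by the *flp-17* promoter, and the authors set the gates against *npr-1* cell suspensions.

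Nuclear hormone receptors are transcription factors that bind DNA through a zinc finger domain and, in many cases, change activity when a small lipophilic molecule binds a second domain. Nematodes carry far more of them than insects or vertebrates, and most of the additional genes derive from an ancestor related to the vertebrate receptor HNF4. In *C. elegans* a few members have well known roles in molting, fat metabolism, sterol handling and the response to dietary metabolites, whereas the ligands and target genes of most of the expanded set are not known. The expansion is uneven across the genome. Of the 256 genes, 157 lie on chromosome V (61.3%, against 23.2% of all genes with counts), 33 on IV, 24 on X, 19 on I, 15 on II and 8 on III. The annotation lists 254 as protein coding and 2 as pseudogenes (*nhr-194* and *nhr-287*). One identifier with the symbol *nhr-27* is named *gei-3* in the reference annotation. It is counted among the 256 but is called *gei-3* here, and the other *nhr-27* identifier had at most 19 reads in any library.

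The libraries held between 374550 and 8683395 reads assigned to genes, and 4 of them (*arcp-1* mutant replicates 3 and 4, control replicates 1 and 5) held at most 952110. A single read was worth 0.294 normalized counts in the deepest library and 6.40 in the shallowest. The *arcp-1* gene itself had 704 to 4277 normalized counts in *arcp-1* mutants and 3288 to 12360 in controls (log2 fold change -1.76 ± 0.40 SE, adjusted p = 0.0308 by limma). Replicate 1 of each genotype held the lowest summed level of the 6 BAG markers (3564 normalized counts in the *arcp-1* mutant and 4487 in the control, against 6850 to 17035 in the other 10 libraries) and the highest level of the germline markers. Transcripts of other tissues were present in every library. Among them the summed level of 5 body wall muscle markers was 24731 to 109183 normalized counts in *arcp-1* mutants and 25544 to 102429 in controls. Nearly all of this sum was 1 gene, *unc-54*, with 23818 to 108508 normalized counts in *arcp-1* mutants and 24288 to 101425 in controls. The 7 intestine markers summed to 273 to 1149 normalized counts in *arcp-1* mutants and 489 to 1665 in controls. From which cells the *nhr* reads came was not tested. None of the tested markers passed the threshold. The 3 coelomocyte markers, *unc-122*, *cup-4* and *lgc-26*, were too low to be tested, and their summed level was 96.0, 67.4 and 181 normalized counts in *arcp-1* mutant replicates 3, 4 and 5, between 0.882 and 3.22 in the other 3 mutants and between 0 and 25.5 in controls. In sorted bulk samples, a difference in the number of cells of a type and a difference in RNA per cell cannot be told apart.

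Most *nhr* genes were detected at low levels. Between 162 and 224 of the 256 genes had a read in any 1 *arcp-1* mutant library, and between 152 and 229 in any 1 control library. In all 12 libraries 105 genes had reads, and 14 genes never had more than 3 reads in a library. On the TPM scale, which corrects for gene length and library total, 21 genes had a mean of at least 50 in *arcp-1* mutants and 17 in controls, 70 and 61 genes lay between 10 and 50, 98 and 110 between 1 and 10, and 67 and 68 below 1. The median *nhr* gene had a mean of 4.80 TPM in *arcp-1* mutants and 3.46 TPM in controls. Over all genes with counts the median in controls was 3.47 TPM, so low levels were not particular to *nhr* genes. Summed over all 256 genes, the level was 2565 to 5479 TPM in *arcp-1* mutants and 2374 to 3865 TPM in controls, and these ranges overlapped.

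The most abundant members formed a short list. In controls the 10 genes with the highest mean TPM held 30.5% of the summed *nhr* TPM, and in *arcp-1* mutants the 10 highest genes of that genotype held 30.8%, with 6 genes in both sets. Ranked by controls, the first were *nhr-138* (132.2 ± 55.5 TPM in *arcp-1* mutants and 152 ± 30.6 in controls, SD, n = 6 each) and *nhr-100* (159 ± 69.2 TPM in *arcp-1* mutants and 146.5 ± 43.1 in controls). Among all annotated genes they held ranks 711 and 745 in controls. These are neighbours on chromosome IV, at IV:9725251-9728576 and IV:9728676-9731314, with 99 bases between them. Next came *nhr-47* (121.8 ± 41.7 TPM in *arcp-1* mutants and 101 ± 35.1 in controls), *nhr-183* (105.3 ± 36.5 and 96.7 ± 30.9), *nhr-214* (65.2 ± 33.3 and 96.3 ± 37.8), *nhr-56* (111.3 ± 43.0 and 95.3 ± 23.1) and *nhr-188* (165 ± 76.5 and 91 ± 37.7), each given in the same order of genotypes. The list closed with *nhr-258* (70.7 ± 34.5 TPM in *arcp-1* mutants and 75.0 ± 30.3 in controls), *nhr-40* (45.2 ± 10.8 and 71.0 ± 20.2) and *nhr-62* (48.4 ± 11.1 and 66.4 ± 14.4). NHR-40 is needed for embryonic and early larval development, and NHR-62 for the longer life of animals on restricted diet. Between neighbours in this order the control means differed by less than either SD, except for the step from *nhr-100* to *nhr-47*, where they differed by slightly more. On the scale of normalized counts, replicate 1 was the lowest *arcp-1* mutant for all of these genes but *nhr-62*, and the lowest control for all but *nhr-138* and *nhr-62*. In *arcp-1* mutants it held 163 normalized counts of *nhr-47* against 386 to 566 in the other 5.

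**Figure D1:**
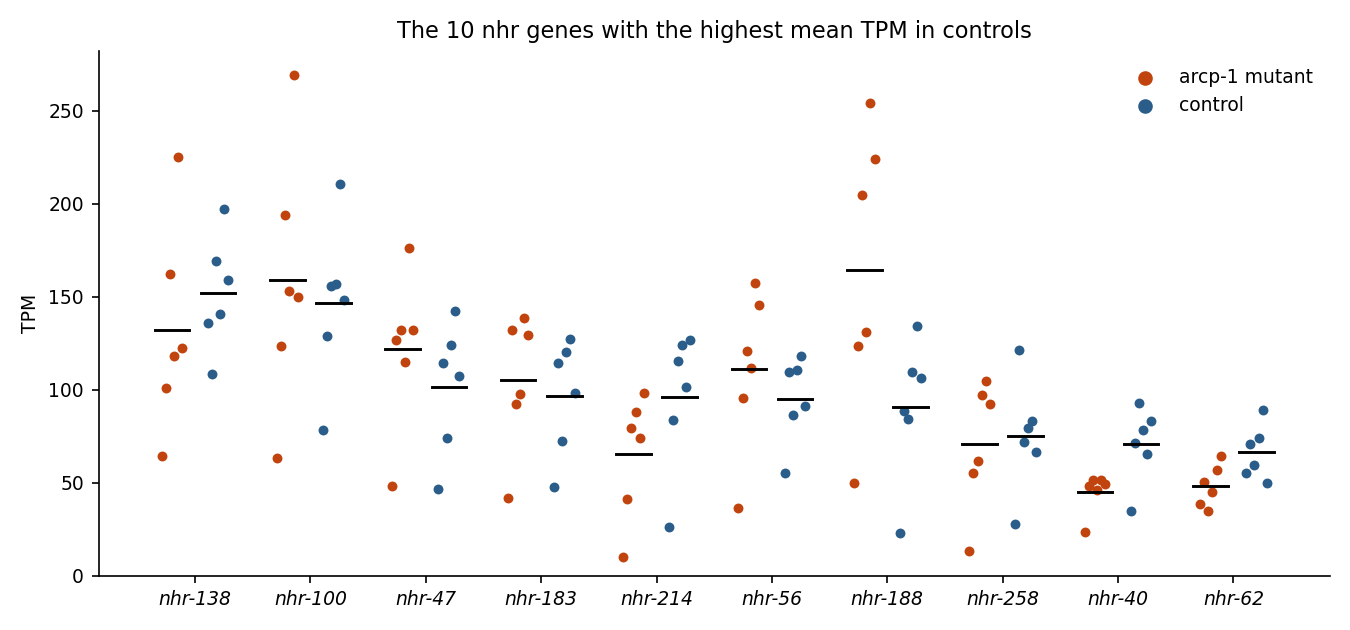
TPM of the 10 *nhr* genes with the highest mean in controls, from left to right in falling order of that mean. Each point is 1 library (6 *arcp-1* mutants at the left of each pair, 6 controls at the right), the bar is the mean of 6 libraries, and the genotypes overlap for every gene shown.

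The comparison of the genotypes asked which of these receptor genes differ in level in the sorted libraries when *arcp-1* is disrupted. Of the 256 genes, 168 passed the filter on low counts (a CPM, the reads of a gene scaled by the total of its library, that reached 1 in no fewer than 6 libraries) and were tested, a share of 65.6% against 53.7% of all genes. At an adjusted p under 0.05 by limma, 10 genes passed, all of them higher in *arcp-1* mutants (5.95% of those tested). Among all 12096 genes tested, 161 were higher, which is 1.33%. On the other side, 0 *nhr* genes were lower, against 40 of all genes, or 0.331%. At an unadjusted p under 0.05, limma gave 35 *nhr* genes with a positive and 6 with a negative fold change, against 671 and 584 of all genes. The edgeR and DESeq2 tests also called 0 *nhr* genes lower. For 8 *nhr* genes every *arcp-1* mutant library lay above every control library, which was so for 1.29% of all genes tested. The reverse was seen for 0 *nhr* genes, but its share over all genes was not counted, so no contrast is drawn from it. Of the 168 genes, 162 reached a CPM of 1 in no fewer than 3 libraries of each genotype. The exceptions include *nhr-52*, *nhr-110* and *nhr-232*, which reached it in all 6 mutants and in at most 2 controls, so they could pass only as genes higher in mutants.

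**Figure D2:**
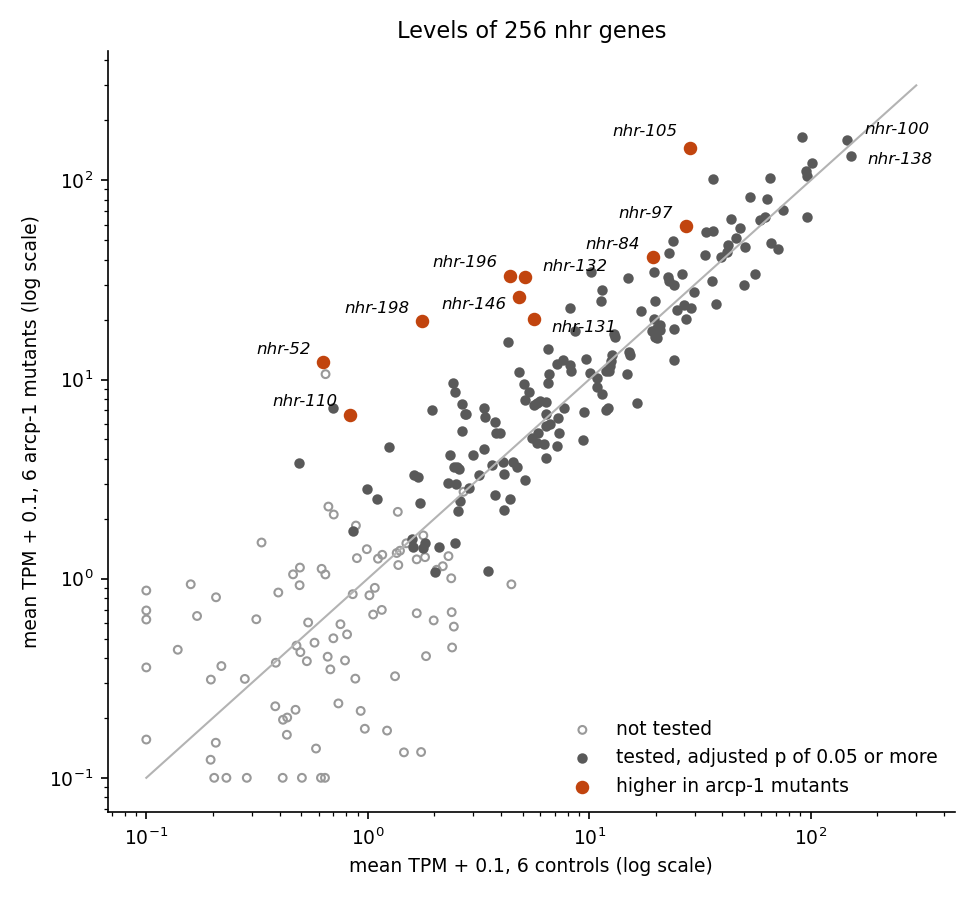
Mean level of each of the 256 *nhr* genes in 6 *arcp-1* mutant libraries (vertical axis) and 6 control libraries (horizontal axis), both as TPM + 0.1 on log scales, with the line of equality. The 10 genes higher in *arcp-1* mutants are coloured and named, with the 2 most abundant genes named for reference, and none of the 10 is among the first 10 in controls.

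The gene with the smallest p was *nhr-105* (IV:7049954-7053450, positions in the WS255 annotation throughout). It had 189, 325 and 601 normalized counts as the lowest, median and highest value in *arcp-1* mutants, and 25.3, 73.1 and 98.2 in controls, so the genotypes did not overlap. Its log2 fold change was 2.37 ± 0.36 (SE, adjusted p = 0.00143 by limma). In an exact permutation test over all 924 assignments of the libraries, two-sided as in all cases here, p was 0.00216, the smallest this design can give. On the TPM scale it averaged 145 ± 72.3 in *arcp-1* mutants and 28.5 ± 12.2 in controls (SD, n = 6 each), which placed it at rank 803 of all annotated genes in mutants and 3742 in controls. By mean TPM, *nhr-105* was among the first 10 *nhr* genes in *arcp-1* mutants, after *nhr-188* and *nhr-100*, and not among them in controls. Also on chromosome IV, *nhr-97* (IV:9757648-9764494) lies 26.3 kb beyond *nhr-100*. Its lowest, median and highest values were 174, 229 and 325 normalized counts in *arcp-1* mutants, and 63.7, 110 and 147 in controls. Its log2 fold change was 1.13 ± 0.22 (SE, adjusted p = 0.0118 by limma), again without overlap. Both genes had reads in all 12 libraries and passed the threshold whichever library was left out.

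Of the 10 genes, 3 lie close together in 1 run on chromosome V. To describe positions, *nhr* genes with at most 20 kb between them were joined into runs, a distance chosen after seeing the data. This gave 41 runs with 163 of the 256 genes, and 8 of the 10 genes higher in mutants were in 6 of these runs. Those 6 runs hold 40 *nhr* genes, of which 24 were tested. A like count was not made for all genes, so no excess of calls in runs is claimed. Only 1 run held more than 1 of the 10 genes. It spans V:15674026-15702363, 28.3 kb, and contains 8 *nhr* genes in the order *nhr-51*, *nhr-52*, *nhr-196*, *nhr-197*, *nhr-268*, *nhr-198*, *nhr-199* and *nhr-53*. No other gene in the run was tested. With runs joined over 10 kb the number with more than 1 such gene was 1, and over 50 kb it was 2.

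Within this run *nhr-198* (V:15693994-15696217) had 19.2, 31.7 and 61.3 normalized counts as lowest, median and highest value in *arcp-1* mutants, and 0, 2.32 and 8.49 in controls. Its log2 fold change of 3.61 ± 0.61 (SE, adjusted p = 0.00366 by limma) was the highest of all tested *nhr* genes. For *nhr-52* (V:15677582-15680074) the values were 4.12, 23.3 and 35.3 normalized counts in *arcp-1* mutants, and 0, 0.189 and 4.03 in controls. The genotypes did not overlap for either gene, but *nhr-52* rests on few reads, between 1 and 70 per *arcp-1* mutant library and between 0 and 10 per control library. The log2 fold change was 3.50 ± 0.65 (SE, adjusted p = 0.00838). The values of *nhr-196* (V:15686090-15687590) were 11.8, 50.1 and 94.3 normalized counts in *arcp-1* mutants, and 0, 5.75 and 16.8 in controls. They gave a log2 fold change of 3.38 ± 0.76 (SE, adjusted p = 0.0314), and 5 of 6 *arcp-1* mutants lay above all controls.

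The other 5 members of the run were not called. At its start, *nhr-51* had 5.00 to 31.3 normalized counts in *arcp-1* mutants and 0 to 8.49 in controls, with a log2 fold change of 1.92 ± 0.61 (SE) that did not pass the threshold (adjusted p = 0.178). Between *nhr-196* and *nhr-198* lies *nhr-197*, which missed the filter. It had 0 to 42.9 normalized counts in *arcp-1* mutants, 146 reads in all, and 0 to 1.92 in controls, 14 reads in all. In a fit without the filter its log2 fold change was 2.76 ± 0.88 (SE, adjusted p = 0.282 by limma). The remaining 3 genes were close to silent, with 9 reads of *nhr-268* over all *arcp-1* mutants and 0 over all controls, 1 and 3 reads of *nhr-199*, and 13 and 20 reads of *nhr-53*. These receptors are paralogs, and how many reads could map to more than 1 of them was not measured here, although the study kept only reads above a mapping quality limit.

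**Figure D3:**
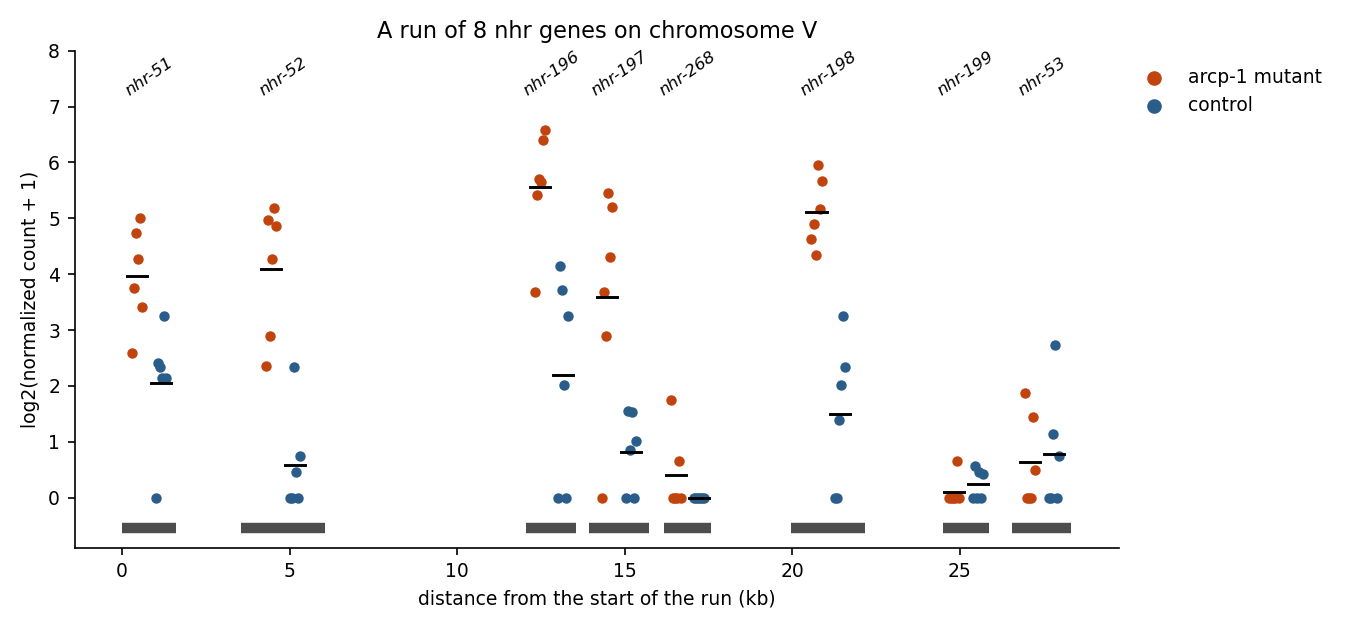
The run of 8 *nhr* genes on chromosome V, with log2(normalized count + 1) against the distance of each gene's middle from the start of the run in kb. Points are the 6 *arcp-1* mutant libraries (left of each pair) and 6 control libraries (right), bars on the points are means and the grey bars below mark the extent of each gene. Mutant means are above control means at *nhr-51*, *nhr-52*, *nhr-196*, *nhr-197* and *nhr-198*, while the means of *nhr-268*, *nhr-199* and *nhr-53* are below 1 in both genotypes.

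The remaining genes on chromosome V stood among tested *nhr* neighbours that did not pass. A pair of them, *nhr-131* (V:494499-497287) and *nhr-132* (V:534446-536226), are separated by 37.2 kb. *nhr-132* had 32.6, 63.9 and 135 normalized counts (lowest, median, highest) in *arcp-1* mutants, and 0, 11.7 and 25.3 in controls, with no overlap. The log2 fold change was 2.89 ± 0.64 (SE, adjusted p = 0.0278 by limma). Its neighbour *nhr-58*, on the same run and with a similar level in mutants, had 49, 61.4 and 72.8 normalized counts in *arcp-1* mutants and 3.61, 51.0 and 74.5 in controls (log2 fold change 0.76 ± 0.53 SE, adjusted p = 0.699). *nhr-131* had 24.5, 45.1 and 76.8 normalized counts in *arcp-1* mutants, and 5.09, 10.3 and 25.3 in controls, with 5 of 6 mutants above all controls and a log2 fold change of 1.80 ± 0.42 (SE, adjusted p = 0.0385). The run that ends with *nhr-131* has 12 *nhr* genes, of which 5 were tested and 1 was called.

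For *nhr-110* (V:1622636-1624433) the values were 6.18, 16.4 and 24.5 normalized counts in *arcp-1* mutants, and 0, 1.08 and 4.25 in controls, without overlap. Behind these values stand 1 to 59 reads per *arcp-1* mutant library and 0 to 10 per control library, and the log2 fold change was 2.73 ± 0.62 (SE, adjusted p = 0.0318). Of the 6 tested genes in its run of 7, it was the only 1 that passed, and the others had log2 fold changes between -0.66 and 0.46. *nhr-84* (V:15876732-15879619) had the smallest change of the 10. It had 67.4, 90.2 and 141 normalized counts in *arcp-1* mutants, and 30.6, 42.2 and 65.0 in controls, with no overlap and a log2 fold change of 1.07 ± 0.26 (SE, adjusted p = 0.0495).

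The last of the 10, *nhr-146* (IV:1626973-1630756), lies on chromosome IV. It had 16.8, 59.7 and 96.7 normalized counts in *arcp-1* mutants, and 3.05, 7.15 and 36.1 in controls, and its log2 fold change was 2.54 ± 0.57 (SE, adjusted p = 0.0299 by limma). The control value of 36.1 came from replicate 1, and 5 of 6 *arcp-1* mutants lay above it. At the other end of this run of 6, *nhr-122* (IV:1613897-1616766, 10.2 kb away) had 32, 45.2 and 85.8 normalized counts in *arcp-1* mutants and 11.9, 19.7 and 33 in controls. Its log2 fold change of 1.30 ± 0.34 (SE) did not pass (adjusted p = 0.0785). Of the other tested members of the run, *nhr-87* had a log2 fold change of -0.66 ± 0.49 (SE, adjusted p = 0.717) and *nhr-274* one of 0.20 ± 0.40 (SE, adjusted p = 0.916).

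**Figure D4:**
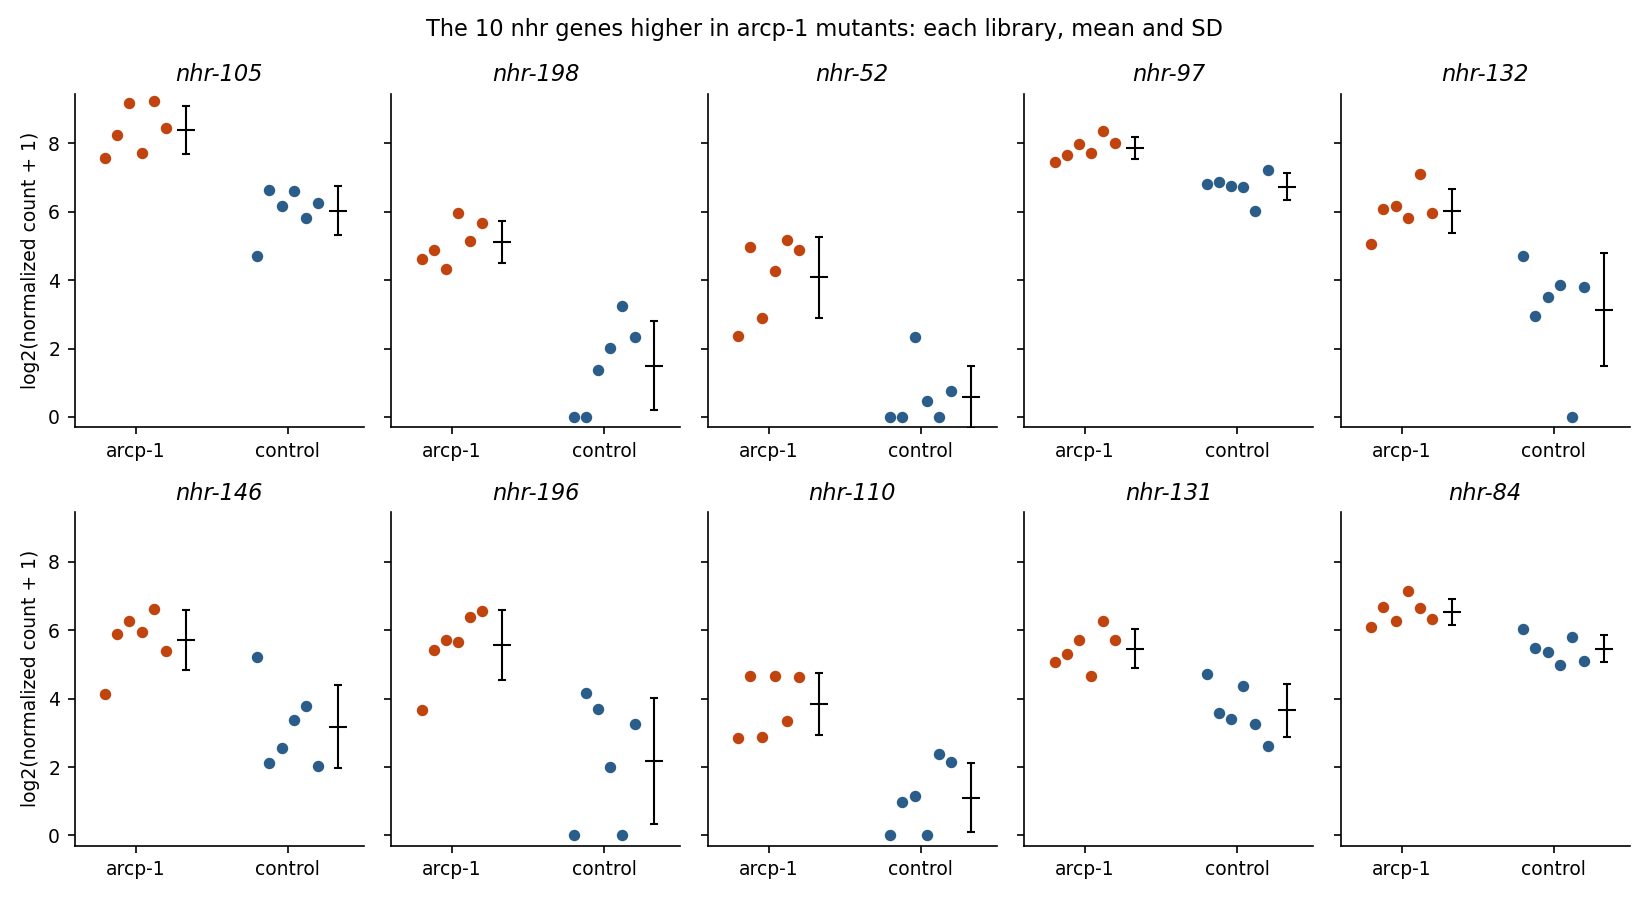
Log2(normalized count + 1) of the 10 *nhr* genes higher in *arcp-1* mutants, in order of p. Each point is 1 library (6 *arcp-1* mutants left, 6 controls right), and the bars give the mean and SD of 6 libraries. The genotypes do not overlap in 7 of the 10 genes, and *nhr-146*, *nhr-196* and *nhr-131* each have a mutant library within the control range.

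By exact permutation, p was 0.00433 for *nhr-131* and *nhr-146*, and 0.00649 for *nhr-196*. For the 7 genes without overlap it was 0.00216. Any gene without overlap has this value in this design, so it adds nothing to the lack of overlap. Of these 7, *nhr-52* and *nhr-110* met the filter through the mutants, as given above. A single read in *arcp-1* mutant replicate 3 is worth 6.40 normalized counts, above their highest controls of 4.03 and 4.25. The 8th gene without overlap was *nhr-232* (V:10256360-10258654), which had 3.24, 6.05 and 18.4 normalized counts in *arcp-1* mutants and 0, 0.201 and 2.71 in controls. Its adjusted p was 0.0551, with a log2 fold change of 2.32 ± 0.58 (SE), and its exons overlap those of *sri-18* on the opposite strand, which unstranded reads cannot separate. Exons overlapped those of another gene, on either strand, in 65 of the 256 genes. Among the 10, this was so for *nhr-97*, whose partner is a piRNA gene on the opposite strand.

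These calls vary with the settings and with the libraries used. All 10 genes passed with edgeR and with DESeq2 on the recovered reads. With the replicate number as a block, 5 of them passed (*nhr-52*, *nhr-97*, *nhr-105*, *nhr-196* and *nhr-198*). A pseudocount (the value added before the log) of 0.1 kept 5 (*nhr-52*, *nhr-97*, *nhr-105*, *nhr-146* and *nhr-198*). Limma without the trend kept 6, losing *nhr-84*, *nhr-132*, *nhr-146* and *nhr-196*. No filter on low counts kept 7, losing *nhr-84*, *nhr-110* and *nhr-131*. Leaving out 1 library at a time gave between 4 and 13 *nhr* genes, with the fewest without *arcp-1* mutant replicate 2, 5 or 6, and *nhr-105*, *nhr-198*, *nhr-52* and *nhr-97* passed in all 12 of these fits. Without the 4 shallowest libraries together, however, *nhr-52* (adjusted p = 0.0810 by limma) and *nhr-97* (adjusted p = 0.135) did not pass, and of the 10 genes *nhr-105*, *nhr-198*, *nhr-132* and *nhr-146* did. *nhr-84* passed in 2, *nhr-146* in 3, *nhr-110* and *nhr-131* in 4, *nhr-196* in 5 and *nhr-132* in 6 of the 12. Without replicate 1 of both genotypes, 16 *nhr* genes were called, among them all 10. Without *arcp-1* mutant replicates 3, 4 and 5, the 3 libraries with the higher coelomocyte marker levels, limma called 0 *nhr* genes and 53 genes in all, with 16 *nhr* genes of positive and 9 of negative fold change at an unadjusted p under 0.05. The 10 genes then had log2 fold changes of 0.91 to 3.57 and unadjusted p of 0.000301 to 0.0209 by limma. With only 3 mutants left this fit also had less power, and no other 3 mutants were left out for comparison. The part of the coelomocyte marker level in these calls was not tested.

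Over all tested *nhr* genes the median log2 fold change was 0.20, against -0.02 over all 12096 genes, and 101 of 168 were above 0 (60.1%, against 47.8% of all genes). A log2 fold change of at least 1 was found for 34 *nhr* genes (20.2%, against 7.91% of all genes), and one of at most -1 for 5 (2.98%, against 7.01%). With genes averaging under 10 reads left out, the median was 0.21 over 148 *nhr* genes. Without *arcp-1* mutant replicates 3, 4 and 5, however, the median was 0.08 for *nhr* genes and 0.09 for all genes. By chromosome the medians were 0.27 on V (97 genes), 0.06 on IV (27 genes), 0.07 on X (22 genes), -0.03 on I (10 genes), 0.43 on II (8 genes) and 0.21 on III (4 genes). On V there were 7 of the 10 calls (7.22% of 97 tested genes, against 1.88% of all genes on V) and on IV the other 3, that is, 4.23% of the 71 tested *nhr* genes outside V, against 1.21% of all genes outside V. Within a genotype, the SD of the log2 values of the median *nhr* gene was 0.79 in *arcp-1* mutants and 0.78 in controls, and that of the median gene of all tested was 0.79 and 0.69.

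**Figure D5:**
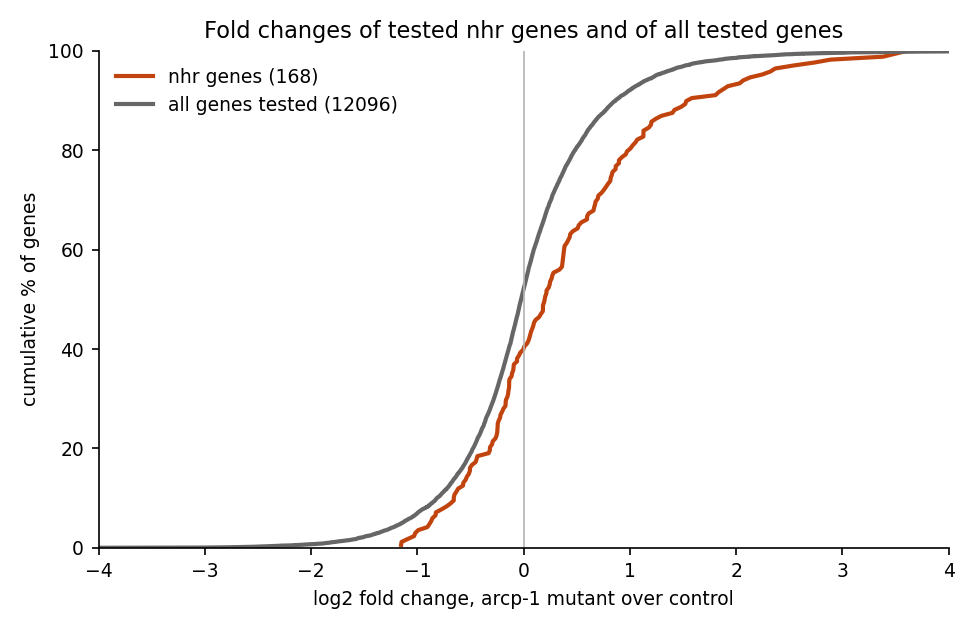
Cumulative share of genes (vertical axis, %) by log2 fold change of *arcp-1* mutants over controls (horizontal axis), for the 168 tested *nhr* genes and all 12096 tested genes, the *nhr* genes included. The *nhr* curve runs to the right of the other, more so in its upper part, with medians of 0.20 and -0.02.

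The genes with the smallest p on the lower side did not pass. The first was *nhr-15* (V:320204-323647), with 11.8, 19.5 and 29.6 normalized counts in *arcp-1* mutants and 21.7, 43.4 and 72.4 in controls (log2 fold change -1.02 ± 0.34 SE, adjusted p = 0.218 by limma). It was named after its values were seen. None of the 10 most abundant genes passed either. The nearest to the threshold were *nhr-40* (log2 fold change -0.62 ± 0.23 SE, 95% interval -1.11 to -0.13, adjusted p = 0.295), *nhr-188* (0.86 ± 0.39 SE, 0.03 to 1.70, adjusted p = 0.450) and *nhr-62* (-0.44 ± 0.20 SE, -0.87 to -0.015, adjusted p = 0.453). For *nhr-138* and *nhr-100* the 95% intervals were -0.80 to 0.27 and -0.53 to 0.65.

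Among the members with counterparts in other animals, 0 of the 8 tested were called by limma. These genes belong to families shared with insects and vertebrates. NHR-23 and NHR-25, relatives of vertebrate ROR and SF-1, act in molting. *nhr-23* had 0 to 82.1 normalized counts in *arcp-1* mutants and 4.54 to 46.9 in controls, and *nhr-25* had 0 to 26.2 in *arcp-1* mutants and 0.378 to 8.49 in controls. The highest member was *nhr-6*, a relative of vertebrate NR4A receptors that acts in the spermatheca, with 31.1 ± 23.1 TPM in *arcp-1* mutants and 22.8 ± 10.8 in controls (SD, n = 6 each). *nhr-48* (12.6 ± 6.18 TPM in *arcp-1* mutants and 9.61 ± 3.65 in controls) and *nhr-41* (9.08 ± 6.22 and 10.7 ± 7.27) followed. The sterol and xenobiotic regulator *nhr-8* had 4.10 ± 1.58 TPM in *arcp-1* mutants and 2.25 ± 1.17 in controls, and its log2 fold change of 0.97 ± 0.63 (SE) was the highest of the list (adjusted p = 0.670). *nhr-67*, the counterpart of tailless, and *nhr-91*, of GCNF, had log2 fold changes of 0.82 ± 1.04 and 0.84 ± 0.77 (SE). The median of the list was 0.32. *nhr-85* and *nhr-239* were not tested, with at most 4 and 5 reads in any library, and *nhr-111* had no normalized count.

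Receptors of fat metabolism were present and 0 of 6 were called. NHR-49 promotes fatty acid oxidation and desaturation, and NHR-66, NHR-80 and NHR-13 are among its partners. *nhr-49* had 73.5 to 250 normalized counts in *arcp-1* mutants and 71.7 to 354 in controls, a log2 fold change of -0.13 ± 0.38 (SE, adjusted p = 0.942). *nhr-66* was the steadiest of them, with 56.8 to 71.5 normalized counts in *arcp-1* mutants and 59.6 to 83.5 in controls, and the 95% interval of its log2 fold change was -0.53 to 0.30. The most abundant of the 6 was *nhr-62*, given above, with 48.4 ± 11.1 TPM in *arcp-1* mutants and 66.4 ± 14.4 in controls and an unadjusted p of 0.0435 by limma that did not hold after adjustment (adjusted p = 0.453). The remaining 3 were low, at 3.75 ± 4.48 TPM in *arcp-1* mutants and 4.45 ± 3.23 in controls for *nhr-13*, 3.77 ± 2.60 and 3.96 ± 3.44 for *nhr-80*, and 3.55 ± 2.79 and 2.42 ± 1.46 for *nhr-76*, which serves serotonin-driven fat loss. The median of the 6 was -0.12. Of 7 NHR-49 target genes 6 were tested and 0 were called, with a median of -0.40 and single values from -1.57 for *fat-5* (± 0.90 SE, adjusted p = 0.614) to 1.14 for *fat-7* (± 0.76 SE, adjusted p = 0.680), both fatty acid desaturases.

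NHR-10 and NHR-68 switch on the propionate shunt, which breaks down propionate when vitamin B12 is scarce, and NHR-114 acts on the methionine and S-adenosylmethionine cycle. None of the 3 was called. *nhr-10* had 16.3 ± 3.53 TPM in *arcp-1* mutants and 13 ± 4.10 in controls, *nhr-68* had 18.8 ± 10 and 20.8 ± 6.41, and *nhr-114* had 23.7 ± 13.3 and 26.7 ± 13.4. Their log2 fold changes were 0.37 ± 0.28, -0.24 ± 0.38 and -0.25 ± 0.42 (SE). The shunt genes were more abundant than these regulators, with *acdh-1*, an acyl-CoA dehydrogenase, at 572 ± 336 TPM in *arcp-1* mutants and 575 ± 178 in controls. Of the 5 shunt genes 0 were called, with log2 fold changes from -0.09 to 0.28 and a median of 0.04.

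The 5 nuclear receptor genes listed that carry other names were compared in the same way. *daf-12*, the receptor for dafachronic acids, had 36.8 to 77.6 normalized counts in *arcp-1* mutants and 42.5 to 89.2 in controls (log2 fold change -0.10 ± 0.27 SE, adjusted p = 0.939). *fax-1*, a regulator of neuron identity, and *sex-1*, which acts in sex determination, did not pass (adjusted p = 0.635 and 0.999). *odr-7*, which specifies the AWA olfactory neurons, missed the filter. Its values were 0 in 5 *arcp-1* mutants and 0.569 in the 6th, where it had 1 read, and 1.21 to 18 in controls, where it had 3 to 20 reads per library. In a fit without the filter its log2 fold change was -3.01 ± 0.65 (SE, adjusted p = 0.0380 by limma). This gene is no *nhr* member, and a fold change at so few reads depends on the pseudocount. *unc-55* had at most 5.64 normalized counts in *arcp-1* mutants and 4.25 in controls.

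Cofactors of nuclear receptors were expressed at higher levels than most receptors and were close between genotypes. MDT-15 is a Mediator subunit that works with NHR-49, DIN-1 is a corepressor of DAF-12, GEI-8 is related to vertebrate NCoR, and CBP-1 is a histone acetyltransferase. *mdt-15* had 102 ± 13.7 TPM in *arcp-1* mutants and 117 ± 22 in controls (SD, n = 6 each), and the other 3 had 52.5 to 79.9 mean TPM in *arcp-1* mutants and 54.1 to 82.6 in controls. Of these 4 genes 0 were called, and their log2 fold changes were between -0.17 and -0.04. Of 8 genes that make dafachronic acids or carry and modify sterols, 5 were tested and 0 called. Their highest member was *ncr-1*, a sterol transporter related to NPC1, with 24.9 ± 3.93 TPM in *arcp-1* mutants and 28.8 ± 6.94 in controls, whereas *daf-9*, the cytochrome P450 for the last step of dafachronic acid synthesis, had 1.90 ± 1.21 and 1.13 ± 0.758.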

How the data were processed

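Smart-seq2 libraries, in which PCR copies cannot be told from separate molecules, were made for 6 replicates per genotype. Per the authors' methods, ribosomal sequence was filtered out (Bowtie2), adapters were trimmed (Trim Galore), reads were aligned to WS255 (STAR, mapping quality no lower than 20) and HTSeq gave unstranded totals for each gene. For 22542 genes the authors scaled these totals with size factors from DESeq2, and these normalized counts are the deposited signal values. A deposited table of TPM, also from the authors, covers 46766 genes. The authors' table of their own comparison also holds mean counts, fold changes and p-values, which were not used, and only its gene symbols and positions were read.

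All normalized counts came out as whole reads (100% within a tolerance of 0.001) after division by the smallest value of each library, and CPM for the filter was computed from these reads. The 12096 genes that reached a CPM of 1 in no fewer than 6 libraries were fitted with limma 3.58.1 in R 4.3.3 (eBayes with trend) on log2(normalized count + 1), and p-values were adjusted by Benjamini-Hochberg over all of them at a threshold of 0.05. Fold changes are on this scale, which understates changes of low genes. Single genes were also compared by exact permutation. Replicates are described by the study as biological. Overlapping exons and gene types were taken from the Ensembl annotation of the same assembly (WBcel235). The fits were tested on simulated data. Alternatives were pseudocounts of 0.1 and 10, no filter, a CPM of at least 1 in all 12 libraries, TPM, quantile normalization, edgeR 4.0.16, DESeq2 1.42.0, limma without the trend, library weights, the replicate number as a block, each library left out, and the 4 shallowest left out. Leaving out replicate 1 of both genotypes, or *arcp-1* mutant replicates 3, 4 and 5, the mean of 10 reads and the 20 kb distance (with 10 and 50 kb) were added after seeing the data.

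The members, the gene lists and the naming rule were chosen with earlier results of these data known. Named genes are the *nhr* genes past the threshold, the 10 with the highest mean TPM in controls, the 10 with the smallest p, those without overlap between genotypes, and those in 3 lists (conserved across animals, fat metabolism, propionate and one-carbon metabolism). Neighbours in the runs, *nhr-122* among them, and *nhr-15* were named after their values were seen.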

Additional observations from a re-analysis of the deposited data

Results flagged for a closer look

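Among the named genes, 74 sets of 6 libraries were examined on the log2 scale for a library far from the other 5 (a gap past Dixon's 95% limit). This found 14 such values. The limit flags about 1 in 20 sets of independent, normally distributed values. These sets share the same 12 libraries and some values are 0, so an excess over chance was not measured. In *arcp-1* mutants, replicate 1 was the low library for 5 genes, with 163 normalized counts of *nhr-47* (386 to 566 in the others), 91.5 of *nhr-183* (205 to 296), 86.2 of *nhr-56* (222 to 357), 25.6 of *nhr-258* (107 to 195) and 75.6 of *nhr-40* (147 to 166). This library also had the lowest summed BAG marker level, and its part in these values was not tested. *arcp-1* mutant replicate 6 was low for *nhr-8*, with 4.03 normalized counts against 12 to 18.4. Among controls, replicate 1 was low for *nhr-214* (72.2 against 169 to 264), *nhr-188* (50.5 against 137 to 212), *nhr-91* (0 against 8.32 to 23) and *nhr-76* (0 against 4.25 to 10.2), and high for *nhr-114* (170 against 39.8 to 64.4). Control replicate 5 was at 0 for *nhr-8* (6.71 to 10.8 in the others) and *nhr-80* (7.19 to 25.7), in a library where 1 read is worth 4.25 normalized counts. Control replicate 3 was the high library for *nhr-52*, with 4.03 normalized counts (10 reads) against 0 to 0.679.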

How the results depend on the processing

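The number of *nhr* genes past the threshold was 10 and within 1.5 times of it in all but the following settings. It was 5 with a pseudocount of 0.1, 5 with a CPM of at least 1 in all libraries (where 97 *nhr* genes were tested), 20 with library weights (18 higher, 2 lower), 5 without the 4 shallowest libraries, 16 without replicate 1 of both genotypes and 0 without *arcp-1* mutant replicates 3, 4 and 5, and from 4 to 13 with 1 library left out. No setting other than library weights called an *nhr* gene lower. Over all genes the count was 201, and it was 404 with DESeq2, 484 with library weights, 110, 371 and 53 in the 3 reduced sets just named, and 124 to 329 with 1 library left out. With replicate number added as a block, 10 *nhr* genes and 291 genes in all were called, 5 of the 10 shared with the fit without it. Between same-numbered libraries, deviations from the genotype mean had correlations of 0.04, 0.32, 0.05, 0.05, 0.07 and 0.13 for replicates 1 to 6. Only 2 of 6 mutants correlated best with their own number. In both genotypes the body wall muscle marker sum was lowest in replicate 1 (24731 normalized counts in the *arcp-1* mutant, 25544 in the control). It was highest in replicate 6 of both (109183 and 102429). The hypodermis marker sum was lowest in *arcp-1* mutant replicate 5 (2235) and control replicate 2 (2881). Whether same-numbered libraries were prepared together was not tested. The median log2 fold change of *nhr* genes was 0.05 to 0.32 over all its settings.

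Among the named genes, direction changed only in those that were not called. These were *nhr-25* (-0.38 with a pseudocount of 0.1, -0.035 with library weights), *nhr-100* (-0.036) and *nhr-183* (-0.0059) under quantile normalization, *nhr-80* (-0.27 under quantile normalization, -0.25 with edgeR, -0.24 with DESeq2, -0.83 with library weights), *nhr-23* (0.69 with edgeR, 0.57 with DESeq2), and, with library weights, *nhr-258* (0.0062), *nhr-41* (0.066), *nhr-49* (0.20) and *nhr-76* (-0.77). With 1 library left out the log2 fold changes ranged from -0.10 to 0.30 for *nhr-100*, from -0.0036 to 0.36 for *nhr-183*, from -0.39 to 0.22 for *nhr-258*, from -0.030 to 0.50 for *nhr-6*, from -1.09 to 0.19 for *nhr-23*, from -0.26 to 0.69 for *nhr-25*, from -0.57 to 0.11 for *nhr-41*, from -0.37 to 0.091 for *nhr-49*, from -0.054 to 0.92 for *nhr-76*, from -0.41 to 0.54 for *nhr-80* and from -0.46 to 0.044 for *nhr-114*. The cause was not tested. Depth limits the low members most, since 1 read is worth up to 6.40 normalized counts, and 88 genes were not tested.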
